A study of Mus musculus with 6 samples.

Results

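Fap, the gene of fibroblast activation protein, and 6 further genes used to mark activated or carcinoma-associated fibroblasts (CAFs), Dpp4, Pdpn, S100a4, Cav1, Thy1 and Vim, were followed in cultured mouse skin fibroblasts (MSFs). They were found by gene name in the deposited table, where each has 1 row, so the set is 7 of 22162 genes. Poly(A) RNA was sequenced from 6 MSF samples on the FVB/N background. Of these, 3 were treated with 10 µM tamoxifen (TAM), for 48 h by the study's methods, and are labelled senescent. The other 3 received the ethanol vehicle (EtOH) and are labelled non-senescent. The methods do not give the time from treatment to the harvest of RNA for sequencing. By the study's methods MSFs came from dorsal skin of FASST mice, so both groups carry a tamoxifen-dependent Cre driven by a pro-alpha 2(I)collagen promoter and a p27Kip1 allele behind a lox-stop-lox cassette at ROSA26. All cells were kept at 3% oxygen. No sample received TAM without the 2 alleles, so effects of the drug and of p27Kip1 cannot be told apart here. The methods describe 1 MSF line from the skin of 1 female mouse, and neither they nor the labels say whether replicates 1, 2 and 3 were separate cultures or mice, so p-values measure the spread between these samples, which may be technical. Age is not given for the cultured cells.

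Fibroblasts in tumours and wounds switch on surface proteases, glycoproteins and contractile genes that resting fibroblasts hold at low levels. No single gene marks all such cells. FAP is a membrane serine protease that cuts after proline and is the usual surface marker of activated stroma. DPP4 (CD26) is its closest relative and marks a lineage of dermal fibroblasts, whereas loss of caveolin-1 rather than gain has been used to mark CAFs. The comparison below asks how the messenger RNA of Fap and of the other markers differed between the groups, and the table holds no measure of their proteins.

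Fap was lower in every library labelled TAM than in every library labelled EtOH, by 2.07-fold in the means, and Thy1 was higher in every library labelled TAM, by 2.32-fold. Neither difference passed the adjusted threshold over all genes tested, of which 20.6% did not overlap between the groups. Dpp4 was lower, and Pdpn higher, within each pair of libraries with the same replicate number, with groups that overlapped. S100a4 and Cav1 changed direction between pairs. Vim had the smallest difference of the 7 genes and was also lower within each pair. Of all genes tested, 41.9% had the same direction in all 3 pairs.

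Values are normalized counts per gene, as deposited. The low limit used below, 1 c.p.m., equals 16.2 normalized counts in a library of mean size. All genes together summed to between 14952367 and 17314953 normalized counts per library. The number of reads behind them is not stated, so the precision is that of 3 libraries against 3. Groups were compared with limma on log2(normalized counts + 1), a model that shares its estimate of the spread across genes. A gene was called at an adjusted p (Benjamini-Hochberg) under 0.05 among the 11877 genes that reached 1 c.p.m. in at least 3 of 6 libraries. All 7 markers passed this filter. Cdkn1b, the endogenous gene of p27Kip1, was higher in the library labelled TAM in 1 of 3 same-numbered pairs (log2 fold change −0.32, standard error 0.28, limma adjusted p = 0.677), and whether reads of the transgene fell on its row is not stated. Directions below are therefore those of the libraries as labelled. In such bulk samples fewer cells of a type and less RNA per cell cannot be told apart.

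Fibroblast markers were abundant in all 6 libraries. The collagen, Pdgfra, Dcn and Lum transcripts together gave 1451799 to 1635395 normalized counts in EtOH and 609790 to 1074483 in TAM, so this sum was also lower in every TAM library. Of the 6 genes, 5 did not overlap between the groups, all lower in TAM, where 11.4% of all genes tested were lower without overlap and 20.6% did not overlap in either direction, and none was called. Markers of other cell types varied in level. T cells carry much Thy1 in mice, and their 6 markers summed to at most 15.3 normalized counts, with Cd3e and Cd3g listed at 0 throughout. The part of T cells and of the other cell types below in the Thy1 values was not tested. Lymphatic endothelium expresses Pdpn, and its 3 markers summed to 3.39 to 49.6 in EtOH and 47.5 to 189 in TAM, with Lyve1 at 3.34 or less. Flt4 reached 173 in TAM replicate 2, the library with the most Pdpn, and Prox1 was 0.76 to 2.88 in EtOH and 12.6 to 32.1 in TAM. The part of these transcripts in the Pdpn values was not tested. The 6 leucocyte markers summed to 176 to 466 normalized counts, and Ptprc, which defines leucocytes, stood at 5.01 or less. Of the 3 tested, Lyz2 (at most 62.9 in EtOH, at least 103 in TAM) and Csf1r (at most 75.7, at least 90.6) were higher without overlap. Neither was called, and 9.19% of all genes tested were higher without overlap. The third, Cd68, reached 352 in EtOH replicate 2. In every TAM library the leucocyte sum was above the value of Dpp4, and the muscle and pericyte sum was above those of Fap and Dpp4. Each sum adds several genes and is not scaled for gene length, so it does not measure a share of a single gene's value. The part of these cell types in the values of Fap and Dpp4 was not tested. Markers of muscle and pericytes, mostly Myh11, summed to 111 to 243 in EtOH and 519 to 1644 in TAM, and those of blood endothelium to 85.8 to 241 and 15.7 to 34.3. The keratinocyte, melanocyte and Schwann cell lists stayed at 293 or less in every library, and the adipocyte list at 1.51 or less.

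Of the 7 genes, 5 have an entry in the RefSeq table of promoters, each 250 bases before to 50 bases after the transcript start (build GRCm38.p6), and Fap and Thy1 have none. Vim is shown as the marker with the highest level, Dpp4 as the one with the lowest, and S100a4 because TATAAA lies at nearly the same distance from the start as in Vim.

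Vim (chr2:13574061-13574360, plus strand): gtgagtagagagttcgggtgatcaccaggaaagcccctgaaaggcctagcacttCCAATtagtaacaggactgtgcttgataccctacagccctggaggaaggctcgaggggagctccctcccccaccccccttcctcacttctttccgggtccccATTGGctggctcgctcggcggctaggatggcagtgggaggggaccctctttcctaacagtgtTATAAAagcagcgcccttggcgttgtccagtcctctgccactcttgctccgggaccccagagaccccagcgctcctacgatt

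S100a4 (chr3:90603520-90603819, plus strand): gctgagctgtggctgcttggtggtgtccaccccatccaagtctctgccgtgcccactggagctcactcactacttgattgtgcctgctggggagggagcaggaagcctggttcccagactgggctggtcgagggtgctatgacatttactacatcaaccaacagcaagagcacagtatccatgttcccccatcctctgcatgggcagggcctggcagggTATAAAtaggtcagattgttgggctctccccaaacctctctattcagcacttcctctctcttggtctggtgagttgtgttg

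Dpp4 (chr2:62412182-62412481, minus strand): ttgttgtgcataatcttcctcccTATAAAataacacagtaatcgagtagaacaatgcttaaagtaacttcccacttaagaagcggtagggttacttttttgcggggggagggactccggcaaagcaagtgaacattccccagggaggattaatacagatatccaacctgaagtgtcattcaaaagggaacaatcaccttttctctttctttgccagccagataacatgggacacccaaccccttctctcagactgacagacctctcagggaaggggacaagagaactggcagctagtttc

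Capitals mark matches on either strand. The motifs searched were the TATA box, spelled TATAAA, and the CCAAT box, spelled CCAAT. Also searched were the GC box, spelled GGGCGG, and the AP-1 site, spelled TGANTCA. No matches overlapped in these promoters. TATAAA began 32 bases before the start in Vim and 31 bases before it in S100a4, and 227 bases before it in Dpp4. The same letters occur in 13.6% of all 32851 promoters of this length, CCAAT in 37.4%, GGGCGG in 35.7% and TGANTCA in 7.81%. Vim had 2 matches to CCAAT. None of the 5 genes had a match to TGANTCA in these windows.

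Fap (ENSMUSG00000000392) lies on chromosome 2 of mm9 from 62339000 to 62412132 on the minus strand, and has 27 exon blocks. Fap had normalized counts of 826, 632 and 836 in EtOH replicates 1, 2 and 3 and 495, 190 and 426 in TAM replicates 1, 2 and 3. The lowest EtOH library thus stood above the highest TAM library, and replicate 2 was the lowest of its group on both sides. The means were 765 ± 115 (SD, n = 3) and 370 ± 160 (SD, n = 3). On the log2 scale the groups differed by −1.15 (standard error 0.37, 95% interval −2.01 to −0.28, limma adjusted p = 0.258, unadjusted p = 0.0161). Within pairs the log2 differences were −0.74, −1.73 and −0.97, so each TAM library had 1.67- to 3.33-fold less Fap than the EtOH library of its number. Fitting the replicate number as a block lowered the standard error to 0.24 and the limma adjusted p to 0.113. When limma weighted each library by its fit, the log2 fold change was −0.96 and the adjusted p 0.0385, the sole alternative of those tried that called Fap. Without TAM replicate 2 the log2 fold change was −0.72 (limma adjusted p = 0.251).

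Dpp4 (ENSMUSG00000035000) encodes the dipeptidyl peptidase CD26 and is a neighbour of Fap, from 62168130 to 62250288 on the same strand. The libraries held 305, 82.0 and 359 normalized counts in EtOH and 262, 16.7 and 127 in TAM. Replicate 2 was again the lowest of both groups, and EtOH replicate 2 lay below TAM replicates 1 and 3. Group means were 249 ± 147 (SD, n = 3) and 135 ± 123 (SD, n = 3). Dpp4 differed by −1.31 on the log2 scale (standard error 1.02, 95% interval −3.72 to 1.09, limma adjusted p = 0.629). The block narrowed the interval to −2.36 to −0.27 (limma adjusted p = 0.217). The log2 differences within pairs were −0.21, −2.23 and −1.50. Without TAM replicate 2 the log2 fold change was −0.19 (adjusted p = 0.930), and without TAM replicate 1 it was −2.14 (adjusted p = 0.548). Gm13561, a transcript on the other strand, shares 3.67% of the exon bases of Dpp4, and whether counting used the strand is not stated.

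Between Dpp4 and Fap lie 88711 bases and 1 gene of the table, Gcg, the glucagon gene, which was listed at 0 in all 6 libraries. On the other side of Fap, Ifih1, an RNA sensor of the interferon response, had 164, 189 and 220 normalized counts in EtOH and 338, 148 and 303 in TAM (log2 fold change 0.38, limma adjusted p = 0.672). Gca, the next gene, had low values (log2 fold change −0.33, limma adjusted p = 0.852). Before Dpp4, Slc4a10 and Tbr1 did not pass the filter. Neither tested neighbour was called.

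Thy1 (ENSMUSG00000032011; chromosome 9, 43851467 to 43856662, plus strand) encodes CD90, a small surface glycoprotein held by a lipid anchor that marks fibroblasts and other mesenchymal cells. Thy1 stood at 1036, 2165 and 571 normalized counts in EtOH and 2366, 4122 and 2246 in TAM. The groups did not overlap, but EtOH replicate 2 came close to TAM replicate 3. The means were 1258 ± 820 (SD, n = 3) and 2911 ± 1050 (SD, n = 3). This is a log2 fold change of 1.36 (standard error 0.49, 95% interval 0.22 to 2.51, limma adjusted p = 0.295, unadjusted p = 0.0257). Its differences within pairs were 1.19, 0.93 and 1.97. Under the block Thy1 had a standard error of 0.24 and an adjusted p of 0.0797, and library weights gave a log2 fold change of 1.51 with an adjusted p of 0.0396. It was 0.90 without EtOH replicate 3 and 1.86 without EtOH replicate 2.

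Pdpn (ENSMUSG00000028583; chromosome 4, 142857334 to 142889467, minus strand) encodes podoplanin, a mucin-like glycoprotein of activated fibroblasts and lymphatic vessels that binds CLEC-2 on platelets. Its normalized counts were 1765, 2681 and 1034 in EtOH and 2170, 3134 and 1591 in TAM. Each TAM library was above the EtOH library of its number, by 1.17- to 1.54-fold, while the groups overlapped widely. Pdpn had a log2 fold change of 0.38 (95% interval −0.54 to 1.30, standard error 0.39, limma adjusted p = 0.719). With the block the interval was −0.05 to 0.81 (limma adjusted p = 0.341). The log2 fold change of Pdpn was 0.02 when EtOH replicate 3 was left out.

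S100a4 (ENSMUSG00000001020; chromosome 3, 90407692 to 90409967, plus strand) encodes the calcium-binding protein also known as fibroblast-specific protein. Its normalized counts were 4373, 7119 and 4886 in EtOH and 2833, 15706 and 6166 in TAM. TAM replicate 2 was the highest and TAM replicate 1 the lowest of all 6 libraries, 5.54-fold apart, so the TAM group spanned the EtOH group. Its log2 fold change, 0.28 (95% interval −1.08 to 1.65, standard error 0.58, limma adjusted p = 0.876), was −0.35 without TAM replicate 2 and 0.88 without TAM replicate 1.

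Cav1 (ENSMUSG00000007655; chromosome 6, 17256335 to 17291452, plus strand) encodes caveolin-1, the main coat protein of caveolae. Cav1 counts, normalized, were 5351, 4698 and 7484 in EtOH and 1810, 7744 and 3703 in TAM. TAM replicates 1 and 3 lay below all EtOH libraries and TAM replicate 2 above them. Cav1 differed by −0.62 on the log2 scale (standard error 0.50, 95% interval −1.80 to 0.56, limma adjusted p = 0.642). It was −1.15 (adjusted p = 0.295) without TAM replicate 2 and −0.10 (adjusted p = 0.941) without TAM replicate 1.

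Vim (ENSMUSG00000026728; chromosome 2, 13495554 to 13504453, plus strand) encodes vimentin, the intermediate filament of mesenchymal cells. Vim counts, normalized, were 46625, 71460 and 36676 in EtOH and 44218, 64857 and 30844 in TAM. Replicate 2 was highest and replicate 3 lowest in both groups, and each TAM library was 1.05- to 1.19-fold below the EtOH library of its number. For Vim the groups differed by −0.16 on the log2 scale (standard error 0.39, 95% interval −1.08 to 0.77, limma adjusted p = 0.900), which spans 0. The sign turned under quantile normalization (0.10), without EtOH replicate 2 (0.11) and without TAM replicate 3 (0.11). The table gives Vim a span that ends at 13496365, short of the annotated gene, and whether only reads in this span were counted is not stated.

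**Figure D1:**
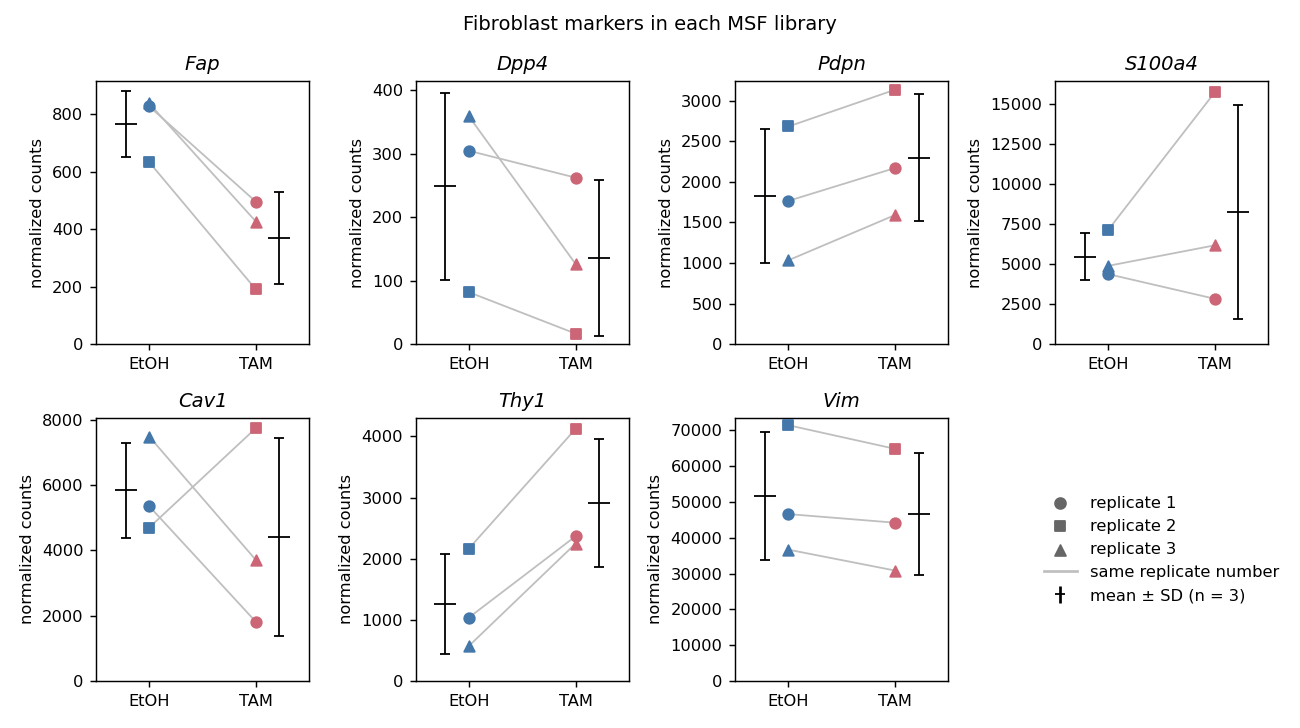
Normalized counts (linear axes from 0) of the 7 markers in each EtOH and TAM library, with lines between libraries of the same replicate number and bars for mean ± SD (n = 3). The groups do not overlap for Fap, lower in TAM, and Thy1, higher in TAM, and replicate 2 of TAM is the highest of its group for 5 of the 7 genes and the lowest for Fap and Dpp4.

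Across the set, 0 of 7 markers were called without the block, where 0.244% of all genes tested were called (0.168% higher and 0.0758% lower), and 0 of 7 with it, against 1.62% (1.00% higher and 0.615% lower). Before adjustment, p was under 0.05 for 2 markers (Fap and Thy1) without the block, against 13.4% of all genes, and for 3 with it (these and Dpp4), against 17.0%. With library weights 1 marker was called lower and 1 higher, where 6.25% of all genes were called (3.25% higher and 3.00% lower). Groups did not overlap for 2 of 7 markers, against 20.6% of all genes tested (9.19% higher and 11.4% lower). With 3 libraries a group the smallest p of an exact two-sided permutation test is 0.1. All 3 pairs differed in the same direction for 5 of 7 markers, 2 higher and 3 lower, against 41.9% of all genes (18.3% higher and 23.6% lower). An absolute log2 fold change of at least 1 was seen for Fap, Dpp4 and Thy1, against 8.76% of all genes. The median log2 fold change was −0.16 over the 7 markers and −0.03 over all genes tested, which moved to 0.08 when libraries were scaled to equal sums.

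**Figure D2:**
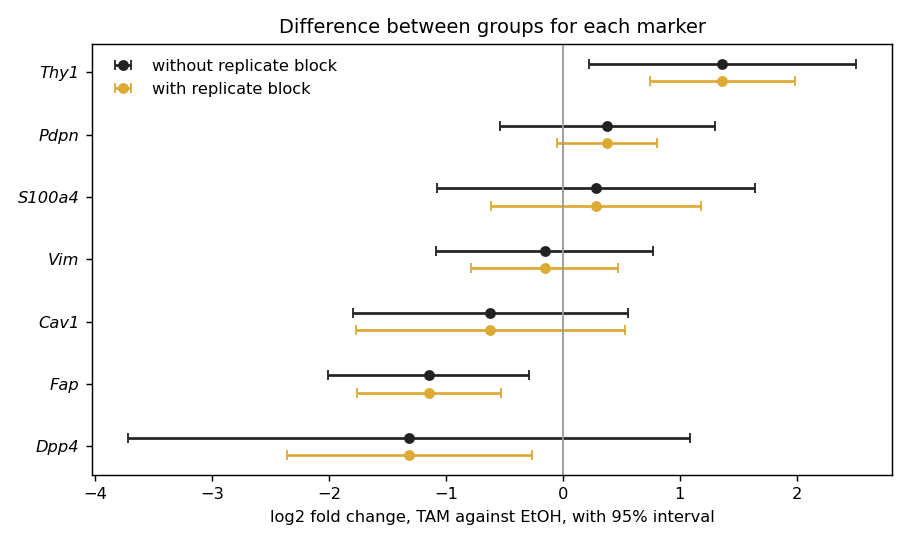
Log2 fold change of TAM against EtOH for each marker with its 95% interval from limma, without (black) and with (yellow) the replicate number as a block. Without the block the intervals of Fap and Thy1 leave out 0, before any adjustment over genes, and the interval of Dpp4 does so with the block.

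**Figure D3:**
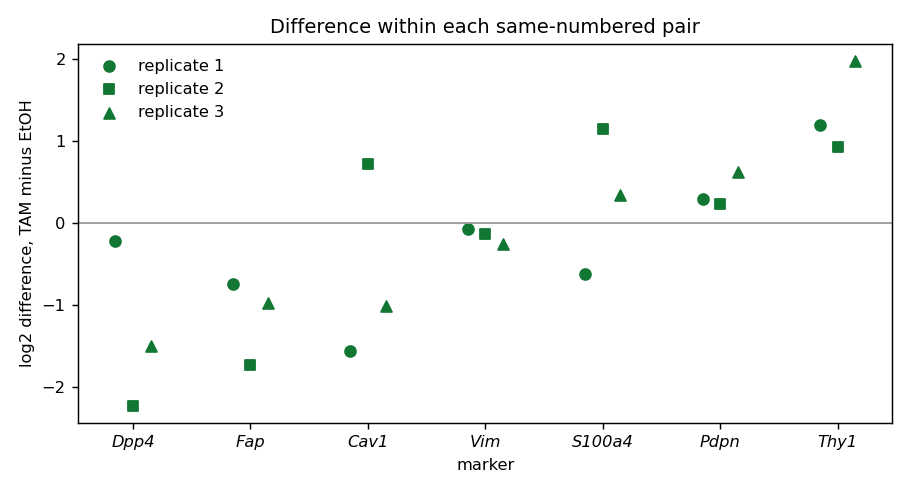
Difference in log2(normalized counts + 1) between the TAM and EtOH library of the same replicate number for each marker, 1 point per pair. All 3 pairs lie below 0 for Dpp4, Fap and Vim and above 0 for Pdpn and Thy1, while S100a4 and Cav1 have points on both sides.

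Levels were compared between genes per kilobase of annotated exon, which for Vim assumes that reads were counted over the whole gene. In EtOH the order was Vim (22093 normalized counts per kb), S100a4 (9301), Cav1 (1702), Pdpn (1005), Thy1 (725), Fap (135) and Dpp4 (39.3). Neighbours in this order overlapped between Cav1 and Pdpn and between Pdpn and Thy1, and the others did not. In TAM the order was Vim (19974), S100a4 (14029), Thy1 (1678), Cav1 (1287), Pdpn (1265), Fap (65.4) and Dpp4 (21.4), with overlap between all neighbours except S100a4 and Thy1, and Pdpn and Fap. Within every library Fap was above Dpp4 per exon base, by 2.11- to 12.7-fold, with the largest ratios in replicate 2 of TAM and of EtOH (8.61).

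The genes most like each marker over the 6 libraries were taken by Pearson's r of log2(normalized counts + 1), as a description over few libraries. For Fap they were Slc35d2 (r = 0.999), Arhgef6 (0.994) and Ugt1a6b (0.993), and 123 of the genes tested exceeded 0.95. Likeness does not measure size, since the log2 fold change was −0.21 for Slc35d2 and −1.79 for Ugt1a6b. Dpp4 was most like Dnajc4, 4430402I18Rik and Arap1, and Pdpn most like Med18, Inpp5a and Spire1. The nearest genes were Zwint, Tmem208 and Ddx23 for S100a4, Kri1, Tmx3 and Anp32e for Cav1, and Kdelr3, Necap1 and Endog for Vim. Thy1 was most like Pip5k1a (0.997), Igfbp7 (0.992) and Tnc (0.991). Tnc, the matrix glycoprotein tenascin-C, is itself a marker of CAFs.

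To set the 7 markers beside related genes, 10 lists of 99 genes in all were compiled, and 77 of them were tested. Without the block 0 were called (an unadjusted p under 0.05 was found for 7 that were higher and 7 that were lower, against 13.4% of all genes tested in either direction). With the block 4 of 77 were called, where 1.62% of all genes tested were called, with Tnc higher and Fgf21, Cd34 and Pi16 lower. Groups did not overlap for 18.2% of the 77 genes, near the 20.6% of all genes tested, and their median log2 fold change was 0.09.

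Of 25 other CAF markers, 22 were tested, with 13 positive and 9 negative log2 fold changes and a median of 0.16. Tnc was called higher with the block only. Its normalized counts were 5644, 30603 and 2373 in EtOH and 41697, 142976 and 25789 in TAM, which is 2.85 on the log2 scale (block standard error 0.30, limma adjusted p = 0.0285 with the block, 0.290 if left out). EtOH replicate 2 lay above TAM replicate 3, and every pair was higher in TAM. The collagens Col1a1, Col1a2 and Col3a1 were lower in every TAM library and were not called (log2 fold changes −0.66, −0.77 and −1.21). These and P4hb made 4 of the 22 that were lower without overlap, against 11.4% of all genes tested. Lrrc15 alone was higher without overlap, against 9.19% of all genes tested. It stood at 3132, 1089 and 1628 normalized counts in EtOH and 6987, 8233 and 5118 in TAM. Neither fit called Lrrc15 (log2 fold change 1.91, limma adjusted p = 0.131).

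FAP and DPP4 cut hormones and chemokines, and the human form of the growth factor FGF21 is a substrate of FAP. Whether FAP cuts the mouse form was not measured here. Of 8 partners and substrates, 6 were tested, with a median log2 fold change of 0.42. Fgf21 had 153, 376 and 183 normalized counts in EtOH and 33.1, 34.3 and 27.7 in TAM, a log2 fold change of −2.76 in both fits. It was called with the block (limma adjusted p = 0.0345) and not in the model without replicate number (0.0524). Cxcl12, a chemokine that DPP4 trims, had a log2 fold change of 0.35 (limma adjusted p = 0.772). Of the 8 other prolyl peptidases, 6 were tested and had log2 fold changes between −0.12 and 0.38, the latter for Prepl (limma adjusted p = 0.661), and none was called.

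Of 9 further mesenchymal surface markers, all were tested, 6 with a positive log2 fold change and a median of 0.74. Without overlap 2 were higher (9.19% of all genes tested) and 1, Cd34, was lower (11.4%). The 2 higher genes were Eng (log2 fold change 0.99, limma adjusted p = 0.123) and Mcam (1.58, limma adjusted p = 0.288), and neither was called in either fit. Cd34, a surface sialomucin of dermal fibroblasts, had 3604, 3129 and 6633 normalized counts in EtOH and 65.2, 54.4 and 416 in TAM. The log2 fold change of Cd34 was −5.19 in both fits. It was called with the block (limma adjusted p = 0.0180) and not in the simpler model (0.0594). Among 8 genes of papillary and reticular dermal fibroblasts, Pi16, a marker of adventitial-type fibroblasts together with Dpp4, had 88.4, 74.4 and 296 normalized counts in EtOH and 12.3, 6.69 and 49.5 in TAM. Its log2 fold change was −2.87 in both fits, and it was called with the block (limma adjusted p = 0.0285) and not without it (0.217). The median of these 8 genes was −0.43.

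For the families of the other markers no gene was called in either fit. Of 14 further S100 genes 6 were tested, 5 of them lower in TAM, with a median log2 fold change of −0.34. S100a16, a neighbour of S100a4 in the cluster on chromosome 3, had 898, 1054 and 964 normalized counts in EtOH and 226, 777 and 501 in TAM (log2 fold change −1.12, limma adjusted p = 0.313). S100a6, which lies on the other side of S100a4 beyond S100a5 (S100a3 and S100a5 did not pass the filter), had a log2 fold change of −0.33 (limma adjusted p = 0.746). Of 8 caveola genes 6 were tested, with a median of 0.20. Cav2, the partner of caveolin-1 encoded next to it, had a log2 fold change of 0.51 (limma adjusted p = 0.687), and Prkcdbp, a cavin, −0.65 (limma adjusted p = 0.334). Around Cav1, Tes, Met and Capza2 had log2 fold changes of 0.87, −0.18 and 0.05 (limma adjusted p = 0.557, 0.891 and 0.953).

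Of 10 Pdpn partners 9 were tested, with a median log2 fold change of −0.20. Cd44, a hyaluronan receptor that binds podoplanin, was higher in TAM in all 3 pairs, with 996, 4195 and 545 normalized counts in EtOH and 1194, 12461 and 1403 in TAM (log2 fold change 1.06, limma adjusted p = 0.708). Clec1b, the gene of CLEC-2, was at 0.79 or less. Of 8 Thy1 partners 6 were tested, with a median of −0.06. The integrin Itgb2 had the largest difference among them (log2 fold change −0.73, limma adjusted p = 0.583). Of 6 further genes of intermediate filaments and their linkers 3 were tested, and Plec, the linker plectin, had 13363, 9453 and 15174 normalized counts in EtOH and 17513, 34802 and 19454 in TAM (log2 fold change 0.88, limma adjusted p = 0.323).

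**Figure D4:**
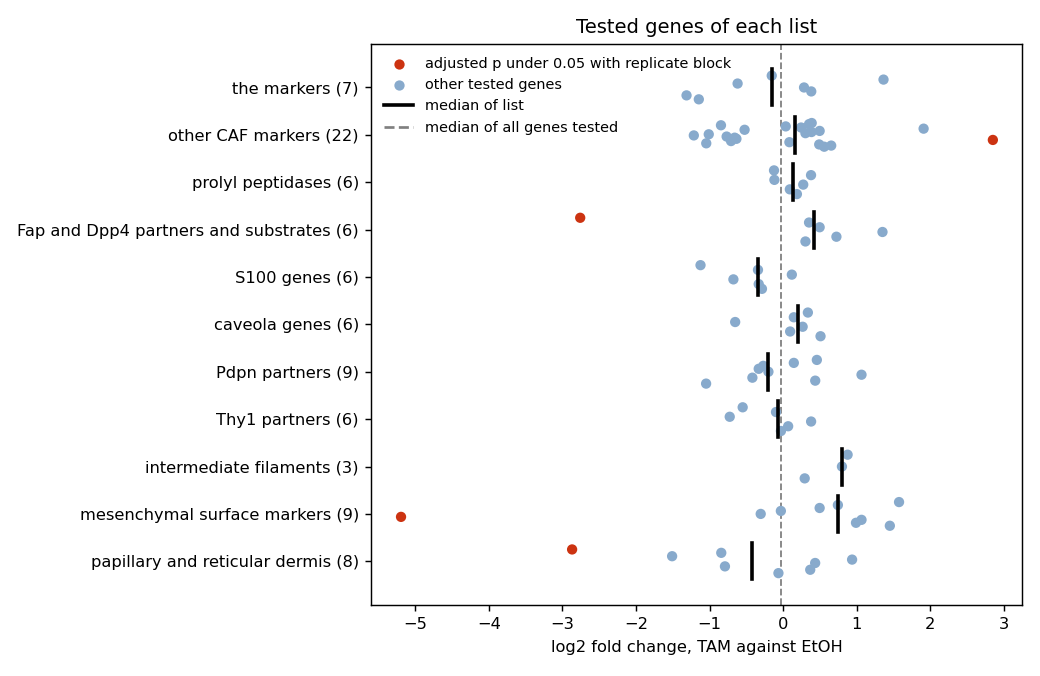
Log2 fold change of TAM against EtOH for each tested gene of the 7 markers and of the 10 lists of related genes, with the number tested in brackets, a bar at each list's median and a dashed line at the median of all genes tested (−0.03). The 4 genes called with the replicate block (Tnc, Fgf21, Cd34 and Pi16) are red and lie outside the range of the 7 markers.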

How the data were processed

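Poly(A) RNA-seq was analysed from 6 MSF samples, grouped by the treatment in their titles. By the methods and the submitters' processing notes, TopHat aligned the reads (mm9), HTSeq counted them per RefSeq gene, and edgeR with TMM tested them, whereas the table lists Ensembl identifiers. Versions are not given in the sources used here. The signal deposited by the authors is 1 table of normalized counts with a column per sample. The values are not whole numbers and the scaling is not stated, so no count model was run. Values were fitted as log2(value + 1) with limma 3.58.1 in R 4.3.3, with an intensity trend and a two-sided moderated test, after a filter of 1 c.p.m. reached by 3 or more libraries. The script was tested on simulated whole-number counts with a spread set in advance. This checks the code and not the calls made on these libraries. Depth in reads is unknown and limits precision to that of 3 libraries per group.

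The replicate numbers come from the titles. After subtracting group means, libraries sharing a number correlated with r of 0.24 to 0.42 across genes (3 pairs), and those of other pairs with −0.31 to 0.04 (6 pairs). Deviations from a group mean cancel within the group, so a positive r for same numbers pulls the other r values down. The contrast between these ranges is therefore partly built in. The model was also fitted with the number as a block. The markers and lists were chosen with earlier results of these data known. Of each list, genes called in either fit were named (at most 3, by size), or else the tested gene with the largest difference. The 3 genes most like each marker and the 2 nearest on each side of Fap, Dpp4, S100a4 and Cav1 were also named. The text also names some list members chosen after their values were seen. Alternatives were other pseudocounts, scalings and filters, library weights, a floor of 1 c.p.m. and leaving out each library. Exons and mm9 positions are from GENCODE M1. Summaries used pandas 2.3.3 under Python 3.11.15, and plots matplotlib 3.10.9.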

Additional observations from a re-analysis of the deposited data

How the results depend on the processing

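With the replicate block 192 genes were called in place of 29 (119 higher and 73 lower), 4 related genes in place of 0, and no marker changed its call. Library weights gave 742 genes, 9 related genes and 2 markers (Fap, −0.96, and Thy1, 1.51). The count of all genes was 17 without a filter and 18 with at least 10 in every library, and between 0 and 15 with a library left out. Related genes called were 1 after scaling to equal library sums and 1 after quantile normalization, and 0 to 1 with a library left out (1 without TAM replicate 3). No marker was called with any library left out, and the log2 fold change of Fap then lay between −1.41 and −0.72. The log2 fold change of S100a4 ran from −0.35 to 0.88 and that of Vim from −0.43 to 0.11 with a library left out, and quantile normalization gave 0.10 for Vim. The cause was not tested. The other pseudocounts, scalings, filters and the floor changed no direction or call of the remaining markers.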
